A study of Arabidopsis thaliana with 4 samples.

Results

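Organ boundaries are the narrow strips of slowly dividing cells that separate a meristem from the organs it forms, and the 10 genes described here are regulators of these strips in Arabidopsis thaliana. They were taken by locus identifier: CUC1 (AT3G15170), CUC2 (AT5G53950), CUC3 (AT1G76420), LOB (AT5G63090), LAS (AT1G55580), JLO (AT4G00220), BOP1 (AT3G57130), BOP2 (AT2G41370), LSH3 (AT2G31160) and LSH4 (AT3G23290). Of these 10 genes, 9 have a row among the 27322 gene models used, and LSH4 is not analysed here. RNA was sequenced from shoot apices of 6-week inflorescences of the double mutant, labelled mp clv3 and carrying the alleles mp319 and clv3-7, and of wild type (Col-0, WT), with older flowers removed in both. MP encodes a transcription factor of the auxin response that is needed to start organs, and CLV3 is the peptide that limits the stem cell pool of the meristem. The labels give 2 replicates per genotype, but the deposited table has 1 column of reads and 1 of RPKM per genotype (RPKM is reads scaled to gene model length and to the size of the library), so no difference below has a check against replicate spread. The columns held 103347441 reads in mp clv3, against 101878433 reads in WT.

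At a boundary, the CUC genes encode NAC transcription factors that keep neighbouring organs apart and are needed to start the meristem. CUC1 acts directly on the ALOG family genes LSH3 and LSH4, whose products hold back differentiation in boundary cells. LOB and JLO are LOB domain (LBD) transcription factors, LAS is a GRAS protein needed for axillary meristems, and BOP1 and BOP2 are BTB-ankyrin coactivators of the NPR family that act at the base of lateral organs. Higher and lower always describe mp clv3 set against WT, and a gene is called when the authors' deposited table gives it an FDR (a p-value adjusted for many tests, by a method that is not stated) under 0.05 and at least a 2-fold ratio. Fold ratios from reads in both genotypes carry a 95% interval in parentheses, which covers counting error of read pairs only.

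CUC1 and CUC2 are known targets of the microRNA miR164, whereas CUC3 is not, and the sequences are shown because CUC1 and CUC2 differed in direction. The mature miR164 sequences were read from the RefSeq annotation of TAIR10.1, with the seed (bases 2 to 8) in capitals; miR164a and miR164b-5p have the same bases.
ath-miR164a, chr2:19520770-19520790, plus strand: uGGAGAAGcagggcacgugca
ath-miR164c-5p, chr5:9852684-9852704, plus strand: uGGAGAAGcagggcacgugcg
The window of each transcript closest to the full complement of miR164a follows, 5′ to 3′, with the bases that differ from that complement in capitals.
CUC1, chr3:5111137-5111157, plus strand: AgcacgugUccugUuucucca
CUC2, chr5:21902301-21902321, minus strand: AgcacgugUccugUuucucca
CUC3, chr1:28672053-28672073, minus strand: CAcaUgCUAcUAgAuucucca
NAC6, chr5:15858797-15858817, minus strand: CUcacgugAccugcuucuccG
NAC100, chr5:24701687-24701707, minus strand: uCUacgugcccugcuucucca
NAC080, chr5:2436958-2436978, plus strand: uUUacgugcccugcuucucca
NAC1, chr1:20947142-20947162, minus strand: AgcacguAcccugcuucucca
CUC1 and CUC2 hold the same 21 bases, in the coding part of exon 3 of 3, with 3 differences from the full complement, 2 of which still allow a G:U pair. The closest window of CUC3 had 9 differences. Among the longest transcripts of 31342 genes, 13 had a window with 4 or fewer differences, or 0.0415%.

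The 9 measured boundary genes differed in both directions, with 2 called higher and 7 called lower. As background here and for list counts below, 9.85% of all 27322 gene models were called at least 2-fold higher and 21.3% at least 2-fold lower. Those models include 4262 at or under 6 reads in both genotypes, whereas none of the 9 genes is that low. The median log2 ratio of the 9 genes was -2.15, beside -0.15 over the 23060 models with more than 6 reads in either genotype. The FDR of the authors' deposited table was largest for JLO, at 9.59e-20, and the whole counting interval lay beyond 2-fold for all 9. Adding 5 RPKM to each value, which weighs low transcripts down, left BOP2 as the only lower gene past 2-fold (log2 ratio of -1.56), while CUC1 and LSH3 stayed above 2-fold. In whole apices, fewer cells of a type and less RNA per cell cannot be told apart.

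**Figure D1:**
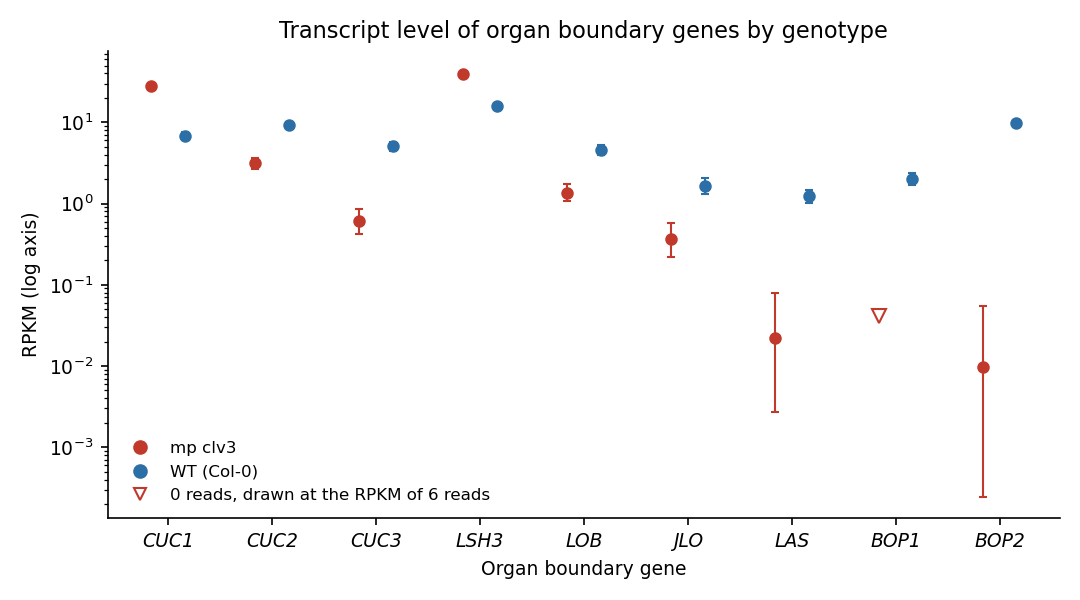
RPKM (log axis) of the 9 measured boundary genes in mp clv3 (red, left of each pair) and WT (blue, right); points are the authors' single values per genotype and bars are 95% counting intervals. CUC1 and LSH3 lie higher in mp clv3, the other 7 lie lower, and BOP1, with 0 reads in mp clv3, is drawn as an open triangle at the RPKM of 6 reads.

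CUC1 had the higher ratio of the members above WT. It had 2858 reads in mp clv3, against 681 in WT, or 28.4 RPKM in mp clv3, against 6.86 RPKM in WT, 4.14-fold higher (3.67 to 4.66). CUC2, its closest relative, had 372 reads in mp clv3, against 1107 in WT, or 3.11 RPKM in mp clv3, against 9.40 RPKM in WT, 3.02-fold lower (2.55 to 3.59). CUC3 had 69 reads in mp clv3, against 568 in WT, or 0.605 RPKM in mp clv3, against 5.05 RPKM in WT, 8.35-fold lower (5.78 to 12.1). The interval of CUC1 lies on the other side of 1 from those of both relatives, and the intervals of CUC2 and CUC3 do not overlap each other. In the same orientation, no stretch of 100 bases, the read length, was shared between a member's longest transcript and another gene's, the CUC genes included. Opposite-strand matches were not searched, and BOP2 overlaps a gene on the opposite strand.

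The make-up of the CUC transcript pool differed between the genotypes. The RPKM of the 3 genes summed to 32.1 in mp clv3, against 21.3 in WT. CUC1 made up 88.4% of that sum in mp clv3 and 32.2% in WT. CUC2 made up 9.70% in mp clv3 and 44.1% in WT, where it was the most abundant of the 3, and CUC3 1.88% in mp clv3 and 23.7% in WT.

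**Figure D2:**
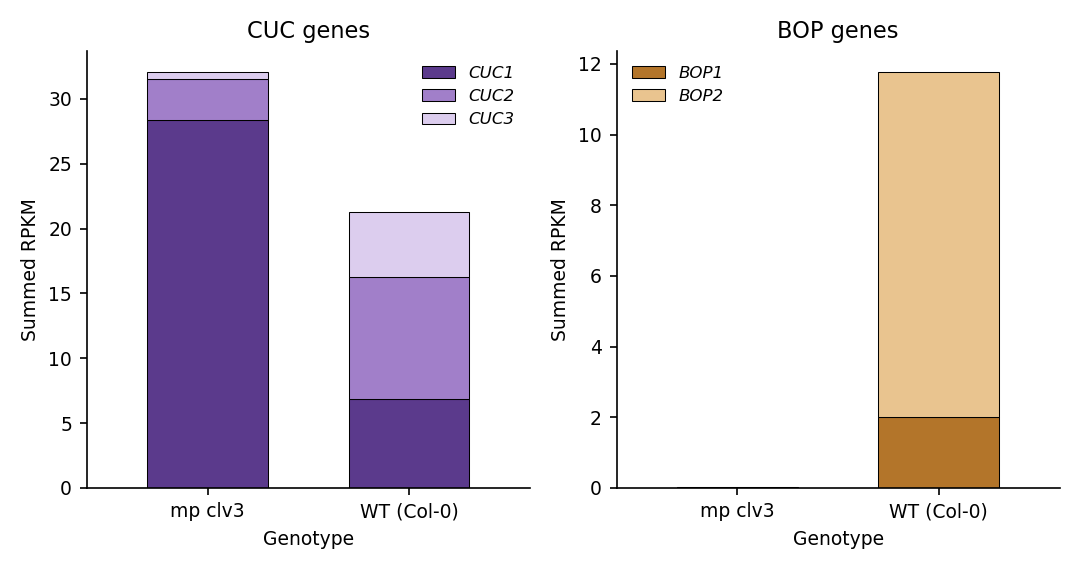
Summed RPKM of the CUC genes (left panel) and of the BOP genes (right panel) in mp clv3 (left bar) and WT (right bar), divided by gene. The CUC sum is 32.1 RPKM in mp clv3, mostly CUC1, and 21.3 RPKM in WT, spread over 3 genes, while the BOP sum in mp clv3 (0.00974 RPKM) is too small to see beside 11.8 RPKM in WT.

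Among 7 NAC genes listed as relatives of CUC or targets of miR164, 5 had a window with 4 or fewer differences, and 3 of those 5 were called higher. NAC6 (ORE1), a senescence regulator, was 8.12-fold higher (6.83 to 9.64), at 20.2 RPKM in mp clv3, against 2.49 RPKM in WT. NAC100 was 4.13-fold higher (2.96 to 5.75), with 390 reads in mp clv3, against 93 in WT. NAC080 was 4.68-fold higher (2.48 to 9.59), with 114 reads in mp clv3, against 24 in WT. NAC1, which acts in lateral root formation, was not called, with 118 reads in mp clv3, against 95 in WT. AT3G12977, with 3 differences from the complement, had 0 reads in either genotype. CUC2, called lower, holds the same 21 bases as CUC1, called higher. The other 6 of the 13 genes with such a window were named after their values in the authors' deposited table were seen. Whether miR164 acts on any of these 6 genes was not tested. Of these, AT1G10530 was called higher, with 188 reads in mp clv3, against 32 in WT, and ENODL2 was called lower, with 4831 in mp clv3, against 13385 in WT. The remaining genes, AT1G77770, TSD2, AT4G01210 and AT5G67200, lay between log2 ratios of -0.53 and -0.05 and were not called. Of the listed NAC genes without such a site, NAM was 2.14-fold lower (1.57 to 2.90), a call lost with DESeq2 size factors and when the whole interval had to lie beyond 2-fold, and NAC2 had 92 reads in mp clv3, against 108 in WT and was not called. In all, 3 of the 7 listed NAC relatives were called higher and 1 lower. The level of miR164 itself was not analysed here.

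LSH3, an ALOG family gene on which CUC1 acts, was the most abundant boundary gene by RPKM in both genotypes. It had 3850 reads in mp clv3, against 1505 in WT, or 39.8 RPKM in mp clv3, against 15.8 RPKM in WT, 2.52-fold higher (2.32 to 2.75). LSH3 and CUC1 were the members called higher. Of the 8 other measured LSH genes, 4 were called higher and 2 lower. Their median log2 ratio was 1.45.

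LSH10 had the largest ratio of the family. It had 8556 reads in mp clv3, against 485 in WT and was 17.4-fold higher (15.2 to 19.8), at 82.9 RPKM in mp clv3, above LSH3. LSH7 had 206 reads in mp clv3, against 16 in WT, LSH9 had 340 in mp clv3, against 70 in WT, and LSH2 had 84 in mp clv3, against 10 in WT, and all 3 were called higher. LSH5 was 3.69-fold lower (2.84 to 4.78), and LSH8 had 6 reads in mp clv3, against 85 in WT and was called lower. LSH1, at a log2 ratio of 0.63, and LSH6, at -0.85, did not reach 2-fold.

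BOP1 and BOP2 were all but absent from mp clv3. BOP2 had 2 reads, taken as 1 read pair, in mp clv3, against 1981 reads in WT, or 0.00974 RPKM in mp clv3, against 9.79 RPKM in WT. Its ratio was 1005-fold lower, and the interval, 180.0 to 39746, is wide since it rests on that pair. BOP1 had 0 reads in mp clv3, against 286 in WT, where it was at 2.00 RPKM. With the floor set at 6 reads in the mutant, BOP1 was at least 48.4-fold lower. The near limit of its counting interval, which was taken on 0 read pairs in mp clv3 and does not use the floor, was 38.8-fold lower. The floor was not applied to the 2 reads of BOP2, so the ratios of BOP1 and BOP2 cannot be compared with each other. In WT, BOP2 made up 83.0% of the summed RPKM of the pair. BOP2 shares 607 bases with AT2G41375 on the opposite strand, which was not analysed here, and whether counting used the strand is not stated.

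Of the 4 NPR-type genes of the same protein family, which includes receptors of the defence hormone salicylate, 2 were called higher and 0 lower. NPR1 was 4.80-fold higher (4.54 to 5.06), at 59.6 RPKM in mp clv3, against 12.4 RPKM in WT. NPR3 was 2.48-fold higher (2.32 to 2.65). NPR4 was at a log2 ratio of 0.59 and AT4G26120, with 129 reads in mp clv3, against 104 in WT, at 0.29, neither called. AS2, a leaf polarity gene that BOP1 is known to activate, had 4 reads in mp clv3, against 486 in WT and was 123-fold lower (33.8 to 1024). ATH1, a BELL homeobox gene known to be activated by BOP proteins, was 8.78-fold lower (7.25 to 10.7), while KNAT6, a KNOX gene of the same boundary pathway, did not differ by 2-fold, at 24.8 RPKM in mp clv3, against 25.3 RPKM in WT. ATH1 and KNAT6 were named after their values were seen. PAN, a TGA factor that binds BOP proteins, was 6.73-fold higher (6.29 to 7.21).

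The boundary LBD genes were both lower. LOB, which limits brassinosteroid at organ bases, had 145 reads in mp clv3, against 477 in WT, or 1.37 RPKM in mp clv3, against 4.56 RPKM in WT, 3.34-fold lower (2.55 to 4.38). JLO had 36 reads in mp clv3, against 158 in WT, or 0.367 RPKM in mp clv3, against 1.64 RPKM in WT, 4.45-fold lower (2.64 to 7.90). The intervals of LOB and JLO overlap, so their ratios are not distinguished by counting error. BAS1, the brassinosteroid-inactivating enzyme gene that LOB activates, was at a log2 ratio of -0.24, with 1138 reads in mp clv3, against 1321 in WT, and was named after its values were seen.

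Over the 39 other LBD genes, 4 were called higher and 19 lower, beside 9.85% and 21.3% of all gene models. The median log2 ratio was -1.18 over the 30 above the floor. Among the lower ones LBD2 had 2 reads in mp clv3, against 1057 in WT, and LBD20 had 0 in mp clv3, against 378 in WT, at least 63.9-fold lower. LBD36, the closest relative of AS2, had 18 reads in mp clv3, against 496 in WT. Of the 19, LBD29, named after its values were seen, rests on the deposited 0.5, since against the floor it was at least 1.69-fold lower. The higher ones were led by LBD40, with 9627 reads in mp clv3, against 10 in WT (949-fold, 406 to 2924), and LBD41, at 919.9 RPKM in mp clv3, against 55.1 RPKM in WT. LBD3 was 5.76-fold higher (3.27 to 10.2) and LBD4 4.30-fold higher (3.86 to 4.79). The count of lower LBD genes leans on low transcripts. With at least 1 RPKM required in either genotype it was 9, beside 3635 over all models. With the whole counting interval beyond 2-fold it was 12, beside 3945 over all models.

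Windows of 250 bases upstream of the annotated gene start were searched on both strands for the auxin response elements TGTCTC and TGTCGG, since MP acts through such elements, and for the TCP core GGNCCC and its longer form GGNCCCAC. The windows with a match are shown from TAIR10.1, 5′ to 3′ on the gene's strand, with the matched bases in capitals (GAGACA and CCGACA are the matches on the other strand).
LOB, chr5:25311020-25311269, minus strand: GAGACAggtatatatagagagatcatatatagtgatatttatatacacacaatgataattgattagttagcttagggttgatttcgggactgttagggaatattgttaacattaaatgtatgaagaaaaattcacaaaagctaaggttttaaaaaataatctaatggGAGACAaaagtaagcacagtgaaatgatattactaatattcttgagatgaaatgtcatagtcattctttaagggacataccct
JLO, chr4:89658-89907, plus strand: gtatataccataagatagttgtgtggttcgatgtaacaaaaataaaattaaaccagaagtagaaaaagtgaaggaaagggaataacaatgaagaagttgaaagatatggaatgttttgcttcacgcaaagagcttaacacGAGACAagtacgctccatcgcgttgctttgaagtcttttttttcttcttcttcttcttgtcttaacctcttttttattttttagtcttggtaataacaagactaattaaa
LSH3, chr2:13277460-13277709, plus strand: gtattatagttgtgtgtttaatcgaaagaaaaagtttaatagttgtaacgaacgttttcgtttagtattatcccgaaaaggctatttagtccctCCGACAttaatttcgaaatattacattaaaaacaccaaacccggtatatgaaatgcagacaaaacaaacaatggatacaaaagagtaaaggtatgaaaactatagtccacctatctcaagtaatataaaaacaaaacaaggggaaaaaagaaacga
TGTCTC was in the windows of 2 of the 10 members, LOB (starting at -250 and at -83 from the gene start) and JLO (at -110), and in 10.9% of 31345 gene windows. TGTCGG was in that of LSH3 alone among the members (at -156), and in 4.13% of all windows. Neither form of the TCP core was in a member's window, against 7.12% of all windows for GGNCCC and 0.995% for GGNCCCAC. A match is a description of these letters and does not show binding.

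LAS had 4 reads in mp clv3, against 217 in WT, or 0.0222 RPKM in mp clv3, against 1.22 RPKM in WT, 55.0-fold lower (14.9 to 462). It was the least abundant boundary gene by RPKM in WT. Of 14 other GRAS genes, 1 was called higher and 5 lower, but 3 of those 5 lay so near 2-fold that TMM scaling left 2 called. RGL3, a DELLA repressor of gibberellin response, was 3.50-fold higher (3.09 to 3.95), and RGL2, its relative, was 7.69-fold lower (6.54 to 9.08). HAM3, which acts in meristem maintenance, was 2.05-fold lower (1.83 to 2.30), AT5G66770 was 2.07-fold lower (1.91 to 2.24) and AT1G63100 was 2.00-fold lower (1.89 to 2.12).

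**Figure D3:**
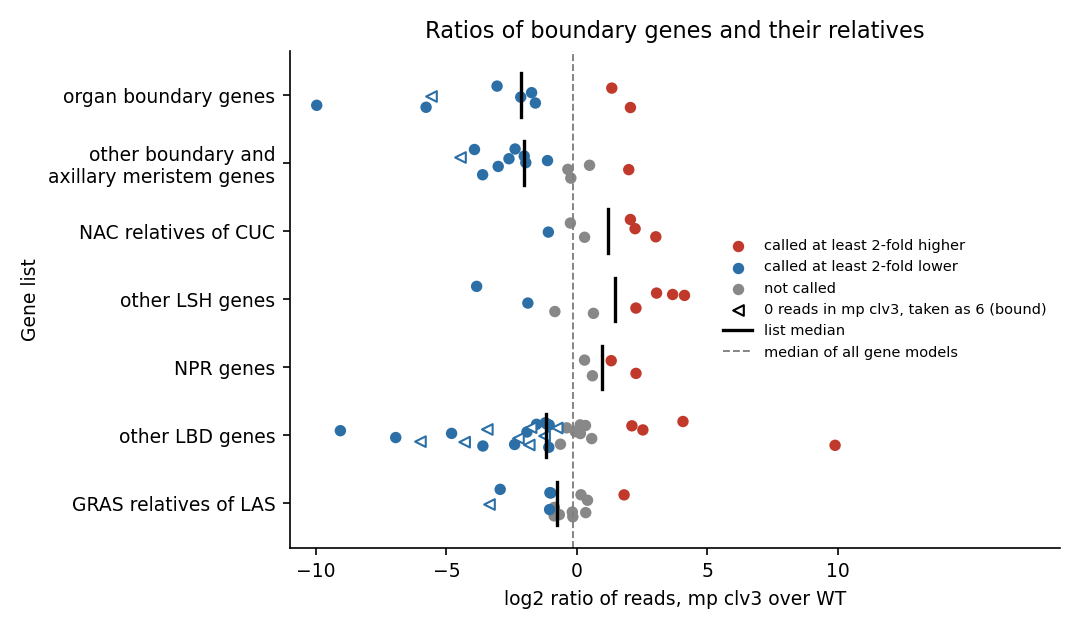
The log2 ratio of reads (mp clv3 over WT) of each gene above the floor of 6 reads, by list, with list medians as black bars and the median of all gene models as a dashed line. Boundary and axillary meristem genes lie mostly left of that line, and the LSH, NPR and CUC-related NAC lists mostly right of it. The LBD genes spread over the widest range, and open triangles are bounds for genes with 0 reads in mp clv3.

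Other known genes of boundaries and axillary meristems were called lower in 9 of 15 measured cases and higher in 1, with a median log2 ratio of -2.02 over the 13 above the floor. The lower count was 7 with at least 1 RPKM required in either genotype, and 6 with the whole counting interval beyond 2-fold. RAX1 and RAX2, MYB factors of axillary meristem initiation, were both called lower, RAX1 by 12.3-fold (5.41 to 34.7) and RAX2 by 8.10-fold (5.98 to 11.2). DPA4, a RAV-type repressor of CUC2 in leaf margins, had 43 reads in mp clv3, against 645 in WT and was 15.2-fold lower (9.67 to 24.1). SUP, which sets the boundary between stamens and carpels, had 0 reads in mp clv3, against 133 in WT, at least 22.5-fold lower. The gene called higher was HAN, a GATA factor of the boundary between meristem and organs, at 45.8 RPKM in mp clv3, against 11.6 RPKM in WT, 3.96-fold higher (3.65 to 4.29). LOF1, a MYB factor of boundaries named after its values were seen, was at a log2 ratio of 0.48, with 1680 reads in mp clv3, against 1186 in WT. LOF2, named likewise, was called lower, by 2.19-fold (1.73 to 2.77), with 211 reads in mp clv3, against 455 in WT.

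Genes that are known to act with or on the boundary genes differed in both directions, 8 higher and 9 lower of 22. STM, the KNOX factor that CUC genes activate in the embryo, was at 217 RPKM in mp clv3, against 68.8 RPKM in WT. DRN, an AP2-type factor of organ initiation, had 4602 reads in mp clv3, against 12 in WT and was 378-fold higher (173 to 1031). PNF, a BELL factor, was 6.41-fold higher (5.88 to 6.98), and PHB, an HD-ZIP III factor, was 5.08-fold higher (4.92 to 5.24). All 5 listed class II TCP genes, a group that in leaves holds CUC expression down, were called lower. TCP2 had 20 reads in mp clv3, against 2619 in WT (133-fold, 72.0 to 278), and TCP4 124 in mp clv3, against 4074 in WT (33.3-fold, 25.9 to 43.6). TCP10 was 16.4-fold (13.7 to 19.6) and TCP3 15.6-fold (13.0 to 19.0) lower, and TCP24, named after its values were seen, was 4.87-fold lower (4.34 to 5.46). MP, named here as one of the mutated genes, was at 14.5 RPKM in mp clv3, against 46.1 RPKM in WT. The position of its lesion in the transcript is not stated, so this level does not check the genotype.

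The order of levels differed between the genotypes. In mp clv3 the order by RPKM was LSH3, CUC1, CUC2, LOB, CUC3, JLO, LAS, BOP2 and BOP1. In WT it was LSH3, BOP2, CUC2, CUC1, CUC3, LOB, BOP1, JLO and LAS. Neighbours whose counting intervals overlapped were CUC3 with JLO and LAS with BOP2 in mp clv3. In WT they were BOP2 with CUC2, CUC3 with LOB, BOP1 with JLO and JLO with LAS. BOP2 and BOP1 in mp clv3 were not compared, as BOP1 had 0 reads, so their order there rests on 1 read pair. The highest member was 4091 times the lowest member above 0 in mp clv3, where the lowest rests on 1 read pair, and 12.9 times the lowest in WT. RPKM rests on the authors' gene models, which imply lengths of 935 bases for LSH3 to 1987 bases for BOP2. The longest RefSeq transcripts are 1789 bases for LSH3 and 2174 bases for BOP2. In WT, BOP2 had more reads (1981) than LSH3 (1505), so the rank of LSH3 there leans on the model length.

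**Figure D4:**
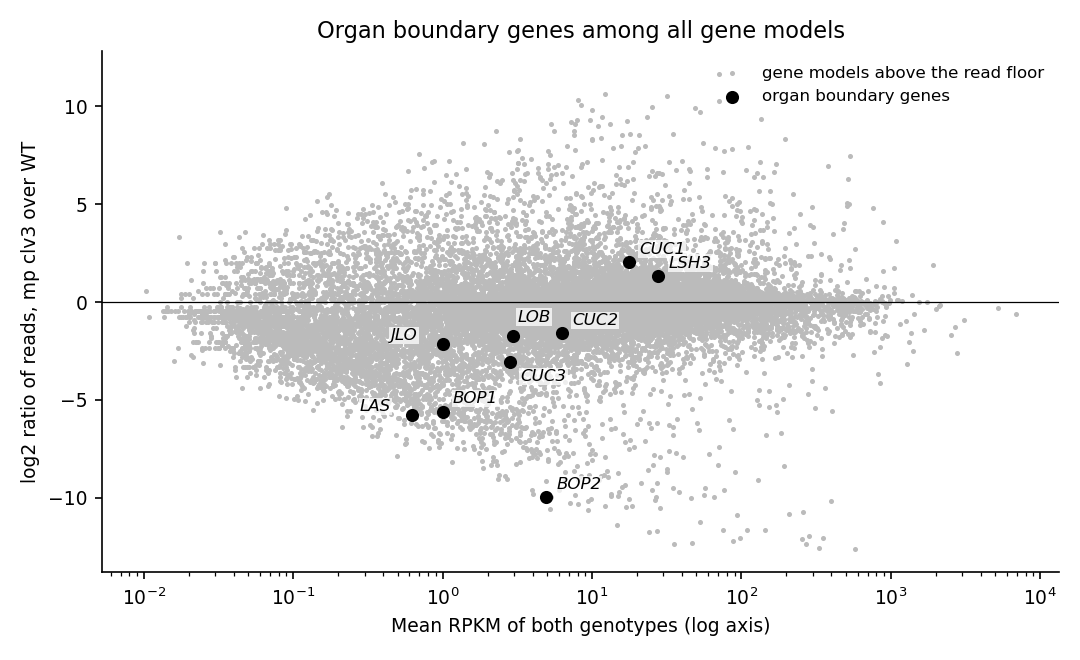
The log2 ratio of reads (mp clv3 over WT) against the mean RPKM of both genotypes (log axis) for the 23060 gene models above the floor, with the 9 boundary genes as black points. CUC1 and LSH3 lie above 0 at higher mean levels than the other members. BOP2 lies at -9.97 from its 2 reads in mp clv3, and BOP1, with 0 reads there, is drawn at its bound of -5.60.

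Markers of lateral organs and flowers moved with the lower boundary genes. All 6 lateral organ markers (FIL, YAB3, YAB2, YAB5, KAN1 and JAG) were called lower, with a summed level of 4.29 RPKM in mp clv3, against 138 RPKM in WT, and JAG at 0 reads in mp clv3. All 6 measured floral organ markers (AP3, PI, SEP1, SEP2, SEP3 and AP1) were called lower, with a sum of 2.15 RPKM in mp clv3, against 547 RPKM in WT and none at 0. All 6 anther tapetum markers were called lower, with a sum of 0.126 RPKM in mp clv3, against 242 RPKM in WT, and MS2, MYB80 and ATA1 at 0 reads in mp clv3. The shoot meristem markers STM, WUS and CLV1 were called higher, LFY was at a log2 ratio of 0.70 and KNAT1 was 3.97-fold lower (3.71 to 4.25), with a sum of 319 RPKM in mp clv3, against 149 RPKM in WT. Of the 4 root markers, COBL9, EXPA7 and LRL3 were at or under the floor in both genotypes, and WOX5 had 149 reads in mp clv3, against 18 in WT. The part that the share of organ tissue plays in the boundary gene values was not tested.

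The coding genes next to the members on the chromosome gave mixed values in the authors' deposited table. Both neighbours of CUC1 were near equal, AT3G15160 at a log2 ratio of -0.05 and AT3G15180 at 0.13, while both neighbours of LSH3 were lower, AT2G31150 at -0.25 and AT2G31170 at -0.63.

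Several neighbours of the lower members were lower too. Over all gene models 21.3% were called lower, and whether these neighbours exceed that share was not tested. Next to CUC2, AT5G53940 was at -0.75 and not called, and AT5G53960 had 0 reads in mp clv3, against 24 in WT. Next to CUC3, ATL8 had 427 reads in mp clv3, against 845 in WT, and AT1G76430 had 0 in mp clv3, against 84 in WT. Next to LOB, AT5G63087 was at -1.85, and AT5G63100 was at -0.53 and not called. Next to LAS, sks12 had 5 reads in mp clv3, against 111 in WT, whereas AT1G55590 was at 0.57 and not called.

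The BOP and JLO neighbours lay on both sides of a log2 ratio of 0. Next to BOP2, AT2G41360 had 0 reads in mp clv3, against 17 in WT, and AT2G41380 had 52 in mp clv3, against 68 in WT, and was not called. BOP1 lies 3 bases from SDP1-LIKE on the opposite strand, which was at 0.27, and AT3G57120 on its other side was at 0.17. Next to JLO, LBD31 was at -0.39 and XSP1 at -0.04, neither called.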

How the data were processed

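Per the labels' protocols, mRNA was isolated from apices and sequenced in pairs of 100 bases, from libraries called strand-specific there. CASAVA 1.7, BWA and TAIR10 appear, with no role given, per the submitters' processing notes. The authors' reads were treated as estimated counts because a 0 is deposited as 0.5; it was returned to 0; whether a column sums the 2 replicates is not stated. The RPKM values are those deposited by the authors. Their deposited log2 ratios set the calls and are printed for neighbours of members and for genes with a miR164 window; they also deposited the FDR, an adjusted p-value of a test that is not stated. One gene model with shifted cells was left out, leaving 27322.

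All other ratios were computed from reads over column totals, and differ from the deposited ones for genes with 0 reads. Models with 2 reads (717 in mp clv3) outnumber those with 1 (99) or 3 (88), so intervals were taken on read pairs. Pairs are reads divided by 2, rounded up. The intervals are exact (Clopper-Pearson) 95% intervals and hold neither replicate spread nor PCR duplicates. Their test on simulated data drew independent pairs, as the intervals assume, so it checks the computation and not the fit to these reads. A gene with 0 reads was set at 6 reads (3 pairs) and its ratio given as "at least", while calls of such genes rest on the deposited 0.5. Genes with fewer than 6 reads but not 0, such as BOP2 and LAS in mp clv3, kept their own reads. The 4262 models at or under 6 reads in mp clv3 and in WT get no ratio. With 1 column per genotype the planned replicate test and any other count model could not be fitted; edgeR 4.0.16 and DESeq2 1.42.0 supplied scaling factors only, as alternatives.

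The members and the 13 other gene lists were chosen with earlier results of these data known; the 3 miR164 precursor genes were not analysed here. Named genes are all members, every gene of lists of up to 8, up to 4 called higher and 4 called lower genes with at least 1 RPKM from longer lists, and neighbours of members; MP is named as a mutated gene, and others are said to be named after their values were seen. Sequences and coordinates come from RefSeq TAIR10.1, matched by locus identifier.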

Additional observations from a re-analysis of the deposited data

How the results depend on the processing

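The alternatives were TMM and DESeq2 scaling, pseudocounts of 0.1, 1 and 5 RPKM, a minimum of 1 RPKM in either genotype, 0 reads as 0.5, and calls from the whole counting interval. The 2 higher calls held under all of them. Direction was not tested, since pseudocounts, minimums and interval rules cannot reverse a ratio and the scaling shifts were small beside every member's ratio. TMM and DESeq2 scaling moved all ratios up by 0.09 and 0.10 on the log2 scale. The count of lower members was 7 as reported, 6 with a pseudocount of 1 RPKM (JLO at -0.95) and 1 with 5 RPKM; the median log2 ratio of the members was -2.15 as reported, -1.23 with 1 RPKM and -0.49 with 5 RPKM. A pseudocount shrinks the ratios of low transcripts by construction. Over all models, 2692 were called higher and 5826 lower as reported, 1846 and 2942 with 1 RPKM, 1161 and 1464 with 5 RPKM, and 3635 lower with the 1 RPKM minimum. The lower count of the other LBD genes was 8 with 1 RPKM and 1 with 5 RPKM, and that of other boundary genes 5 and 2 (9 as reported). Of the recomputed counts for the context lists, 170 stayed within 1.5 times and 22 were lower by more. Leaving out a replicate could not be run. No paired analysis was possible because the columns carry no replicate number. Depth limits BOP1, BOP2 and LAS most, with 0, 1 and 2 read pairs in mp clv3.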
